A study of Mus musculus with 5 samples.

Results

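Integrin subunit genes of the cells that build the vessel wall were followed in brain microvascular fragments of wild-type and hyperglycemic mice. The 10 genes were chosen by symbol: the alpha subunits *Itga1*, *Itga3*, *Itga4*, *Itga5*, *Itga6*, *Itga7* and *Itgav*, and the beta subunits *Itgb1*, *Itgb5* and *Itgb8*. They are 10 of the 34615 gene symbols measured and 10 of the 27 integrin subunit genes listed. The remaining 17 integrins, most of them known from leukocytes, platelets or epithelia, served as a comparison.

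RNA came from fragments captured from collagenase-treated brain with magnetic beads against the endothelial protein PECAM1, with 1 library per mouse. The 3 WT mice and the 2 heterozygous *Ins2*-AKITA mice were males on the C57BL6 background (C57Bl/6-J in the study's methods) between 26 and 38 weeks of age, and the WT mice were littermate controls that lack the mutant allele. *Ins2*-AKITA is a point mutation of an insulin gene that harms pancreatic beta cells and leaves the animal hyperglycemic, so that vessels of mutant mice meet the condition through the blood. Captured fragments carry more than endothelium, and defining markers of endothelial cells, pericytes, smooth muscle cells and astrocytes were all above 0 in all 5 mice. Neuron and oligodendrocyte markers were abundant as well, so the integrin values are those of a mixture of cells.

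Integrins are receptors made of an alpha and a beta subunit that span the cell membrane. Outside the cell they bind laminins, collagens, fibronectin or other matrix proteins, and inside they are coupled to actin by talin, kindlin and their partners. In brain vessels they anchor endothelial cells, pericytes and astrocyte end-feet to the shared basement membrane. The heterodimer of *Itgav* and *Itgb8*, known from astrocytes and other glia, also activates latent TGF-beta and is needed for normal brain vessel development.

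All 10 integrins were detected in all 5 mice, and none differed between the genotypes beyond the spread between mice. Values are FPKM, fragments scaled to exon length and to the size of the library, so that genes can be ranked by level. *Itgav* had the highest mean over the 5 mice, 37.8 FPKM, followed by *Itgb5* at 34.8, *Itgb1* at 34.3 and *Itga6* at 29.0. *Itgb8* followed at 16.3, *Itga3* at 11.1, *Itga1* at 9.56, *Itga7* at 6.89, *Itga4* at 4.69 and *Itga5* at 4.30. The ranges of the first 4 genes overlapped, so their order among themselves was not resolved. The step from *Itga6* to *Itgb8* was the only place in this order where neighbouring genes did not overlap: *Itga6* lay above *Itgb8* in 5 of 5 mice, by a log2 ratio of 0.84 ± 0.38 (SD, n = 5). *Itga1* exceeded *Itga7*, and *Itga7* exceeded *Itga4*, within 5 of 5 mice, although their ranges over mice overlapped.

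**Figure D1:**
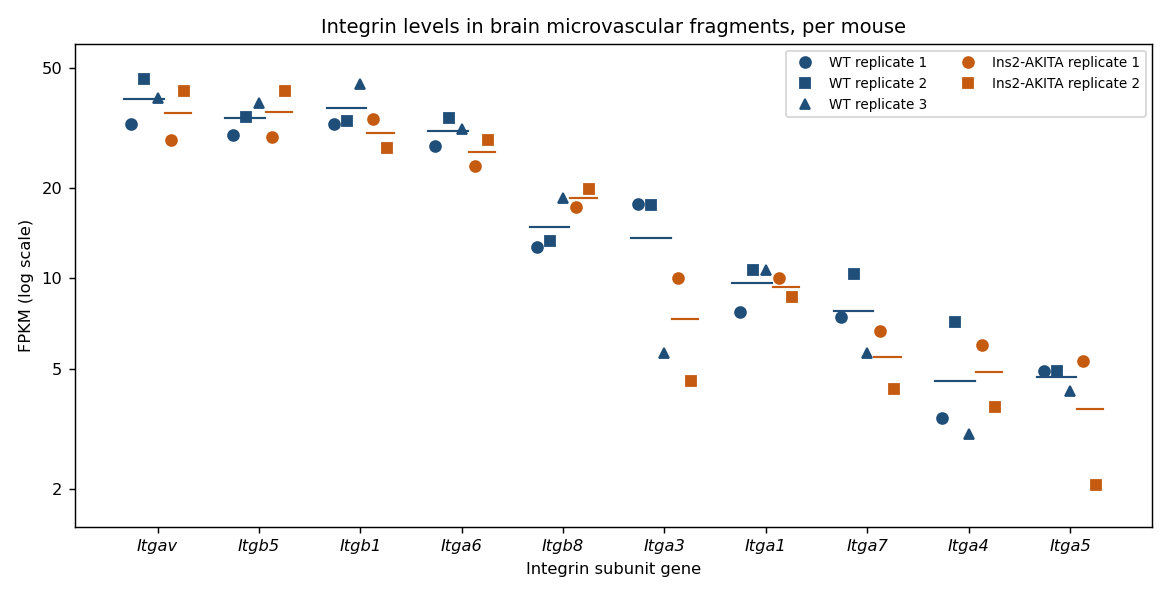
FPKM (log axis) of the 10 integrin subunit genes, with 1 symbol per mouse and a line at the mean of each genotype, WT in blue (n = 3) and *Ins2*-AKITA in orange (n = 2). *Itgav*, *Itgb5*, *Itgb1* and *Itga6* form the upper group, with means between 29.0 and 37.8 over the 5 mice, and the values of the genotypes are interleaved or overlapping for all 10 genes.

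These 4 genes held between 67.6 and 76.4% of the summed FPKM of the 10 integrins in each mouse. The sum itself was 177, 212 and 201 FPKM in the WT mice and 171 and 183 FPKM in the *Ins2*-AKITA mice. The genotypes overlapped in this sum (197 ± 18.0 against 177 ± 8.20, mean ± SD, exact two-sided permutation p = 0.3). With 3 mice against 2 there are 10 splits, so no exact test here can give a p under 0.1.

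On the FPKM scale as deposited, 7 of the 10 integrins had a lower mean log2 value in *Ins2*-AKITA and 3 a higher one. Over all genes tested, 8718 of 16286 were lower and 7568 higher. Rescaling each mouse to the same FPKM sum (TPM) put 10 of 10 integrins higher, along with a median over all genes of 1.07. Among 16286 genes with a mean FPKM of at least 1, limma called 4 (0.0246%) at an adjusted p of 0.05, all lower in *Ins2*-AKITA. These were *Snora47*, *SNORA13*, *Gm14889* and *Gm17592*, and 0 of the 10 integrins were among them. The paper, with a different test (Cufflinks), called more genes in these mice, most of them lower in *Ins2*-AKITA, and listed no integrin. At an unadjusted p of 0.05, limma found 0 integrins lower, against 2.93% of all genes tested, and 0 higher, against 1.53%. In 0 integrins did both *Ins2*-AKITA mice lie below all WT mice, against 10.3% of all genes, and in 0 did both lie above, against 9.24%. The median log2 fold change of the integrins was -0.20, and that of all genes tested was -0.03. The integrin median was -0.30 without WT replicate 1 and -0.10 without WT replicate 2, and lay between these without any other mouse. The smallest adjusted p among the integrins was 0.897 in limma. In whole fragments, fewer cells of a type and less RNA per cell cannot be told apart.

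**Figure D2:**
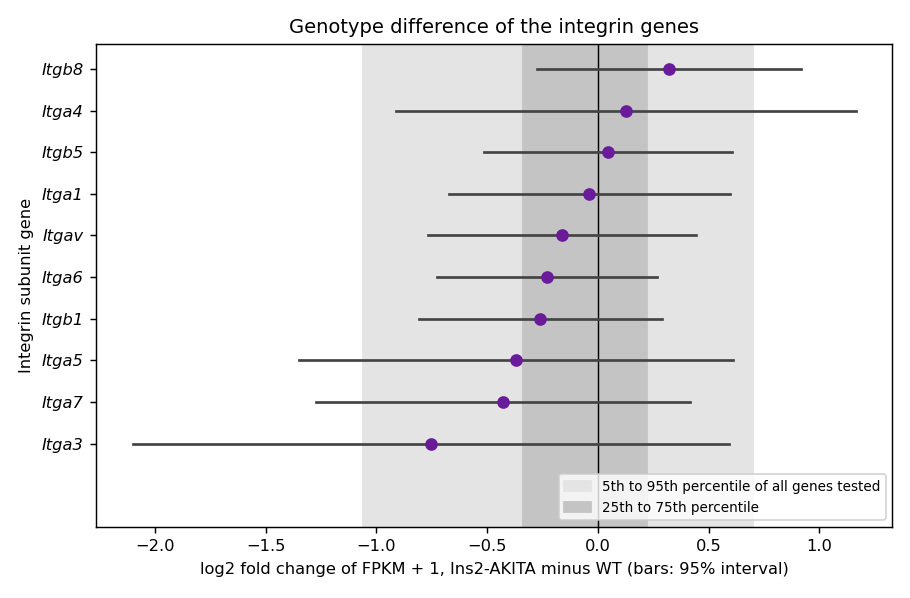
Log2 fold change of FPKM + 1 (*Ins2*-AKITA minus WT) of each integrin from limma, with its 95% interval as a bar and the spread of all 16286 genes tested as grey bands. All 10 intervals include 0, and the points run from -0.76 (*Itga3*) to 0.32 (*Itgb8*); under TPM scaling all 10 points would lie above 0, with the median of all genes at 1.07.

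The alpha subunits that pair with *Itgb1* to bind laminin were *Itga3*, *Itga6* and *Itga7*. *Itga6* (ENSMUSG00000027111; NCBIM37 chromosome 2, 71583673 to 71696473, plus strand), a laminin receptor of endothelial cells, had the highest level of these. It measured 27.4, 34.1 and 31.2 FPKM in WT and 23.6 and 28.8 FPKM in *Ins2*-AKITA. The lowest of the 5 mice was *Ins2*-AKITA replicate 1, while replicate 2 lay inside the WT range. Limma gave a log2 fold change of -0.23 (SE 0.21, 95% interval -0.73 to 0.27, limma adjusted p = 0.902), and the exact permutation p was 0.3. The log2 value was -0.095 without *Ins2*-AKITA replicate 1 and -0.37 without *Ins2*-AKITA replicate 2.

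*Itga3* (ENSMUSG00000001507; chromosome 11, 94905788 to 94938115, minus strand), which also binds laminins, was the most variable integrin. Its level was 17.7, 17.6 and 5.67 FPKM in WT and 10.1 and 4.56 FPKM in *Ins2*-AKITA. WT replicate 3 lay with *Ins2*-AKITA replicate 2, and *Ins2*-AKITA replicate 1 fell between them and the other WT mice. The 95% counting interval was 14.4 to 21.6 FPKM in WT replicate 1, 4.46 to 7.11 in WT replicate 3 and 3.00 to 6.63 in *Ins2*-AKITA replicate 2. The gap within WT was therefore wider than counting error, with a highest to lowest WT ratio of 3.12. The log2 fold change was -0.76 (SE 0.56, interval -2.10 to 0.59, limma adjusted p = 0.897), and it ranged from -1.25 without WT replicate 3 or without *Ins2*-AKITA replicate 1 to -0.26 without *Ins2*-AKITA replicate 2. Leaving out WT replicate 1 or WT replicate 2 each gave -0.51.

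*Itga7* (ENSMUSG00000025348; chromosome 10, 128370869 to 128395333, plus strand), a laminin receptor known from muscle cells, measured 7.47, 10.3 and 5.65 FPKM in WT and 6.70 and 4.31 FPKM in *Ins2*-AKITA. The genotypes overlapped, with *Ins2*-AKITA replicate 2 the lowest of the 5 mice. Its log2 fold change of -0.43 (SE 0.35, interval -1.27 to 0.41, limma adjusted p = 0.902) stayed below 0 without any 1 mouse, at -0.70 without *Ins2*-AKITA replicate 1, -0.16 without *Ins2*-AKITA replicate 2 and -0.23 without WT replicate 2. Each of these 3 laminin receptors thus had a lower mean in *Ins2*-AKITA as deposited (TPM: 0.60 for *Itga3*, 1.26 for *Itga6* and 0.70 for *Itga7*), and for none was the difference larger than the spread between mice.

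*Itga1* (ENSMUSG00000042284; chromosome 13, 115748287 to 115892172, minus strand), whose heterodimer with *Itgb1* binds collagens and laminin, differed least between the genotypes. It measured 7.73, 10.7 and 10.7 FPKM in WT and 10.01 and 8.67 FPKM in *Ins2*-AKITA, and both *Ins2*-AKITA mice lay inside the WT range. The log2 fold change was -0.04 (SE 0.26), and its 95% interval of -0.67 to 0.59 bounds what could be seen. Its sign turned without WT replicate 2 (0.03), WT replicate 3 (0.03) or *Ins2*-AKITA replicate 2 (0.05).

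*Itga4* (ENSMUSG00000027009; chromosome 2, 79095583 to 79173280, plus strand), which binds VCAM1 and fibronectin and is best known from leukocytes, measured 3.45, 7.17 and 3.05 FPKM in WT and 6.02 and 3.74 FPKM in *Ins2*-AKITA. Both mutant mice lay inside the WT range, whose upper end was WT replicate 2 alone. Limma gave a log2 fold change of 0.13 (SE 0.43, interval -0.91 to 1.17, limma adjusted p = 0.969). It turned to -0.06 without WT replicate 3 and to -0.15 without *Ins2*-AKITA replicate 1, was 0.44 without WT replicate 2 and 0.41 without *Ins2*-AKITA replicate 2, and was near 0 without WT replicate 1. Exons of *Itga4* share 1124 nt with *Cerkl* on the opposite strand, which measured 7.94, 13.5 and 3.45 FPKM in WT and 4.10 and 2.76 FPKM in *Ins2*-AKITA. Both genes were highest in WT replicate 2. The library kit keeps strand, but the strand setting used in counting is not given in the sources used here, so reads of the overlap cannot be told apart.

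Receptors for matrix proteins with the RGD sequence motif were represented by *Itga5* and *Itgav*. *Itga5* (ENSMUSG00000000555; chromosome 15, 103174720 to 103197194, minus strand), the alpha subunit of the classical fibronectin receptor, was the integrin with the lowest mean. Its level was 4.95, 4.92 and 4.22 FPKM in WT and 5.34 and 2.06 FPKM in *Ins2*-AKITA. The mutant mice were the highest and the lowest of the 5, and the WT mice lay between them. The value of 2.06 rests on about 10.96 fragments and has a counting interval of 1.03 to 3.69 FPKM. The log2 fold change was -0.37 (SE 0.41, interval -1.35 to 0.61, limma adjusted p = 0.902), was 0.16 without *Ins2*-AKITA replicate 2 and was -0.89 without *Ins2*-AKITA replicate 1.

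*Itgav* (ENSMUSG00000027087; chromosome 2, 83564554 to 83647073, plus strand) pairs with *Itgb1*, *Itgb5* and *Itgb8* among the genes followed here. It measured 32.6, 45.9 and 39.7 FPKM in WT and 28.9 and 41.8 FPKM in *Ins2*-AKITA. The mutant mice lay on either side of the WT mean, 1 of them below all WT mice. Its log2 fold change was -0.16 (SE 0.25, interval -0.77 to 0.44, limma adjusted p = 0.931), was 0.10 without *Ins2*-AKITA replicate 1, -0.42 without *Ins2*-AKITA replicate 2, -0.29 without WT replicate 1 and -0.05 without WT replicate 2. *Gm13684* on the opposite strand shares 634 nt with *Itgav* and did not exceed 0.435 FPKM in any mouse.

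*Itgb1* (ENSMUSG00000025809; chromosome 8, 131209554 to 131257100, plus strand) is the common beta subunit of most matrix-binding integrins. It measured 32.7, 33.4 and 44.3 FPKM in WT and 33.9 and 27.1 FPKM in *Ins2*-AKITA. WT replicate 3 was the highest and *Ins2*-AKITA replicate 2 the lowest, and the other 3 mice lay close together. The log2 fold change was -0.26 (SE 0.23, interval -0.81 to 0.29, limma adjusted p = 0.902), and it was -0.12 without WT replicate 3, -0.10 without *Ins2*-AKITA replicate 2 and -0.42 without *Ins2*-AKITA replicate 1.

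*Itgb5* (ENSMUSG00000022817; chromosome 16, 33829751 to 33949239, plus strand), whose partner is *Itgav* and whose ligands include vitronectin, measured 30.0, 34.4 and 38.1 FPKM in WT and 29.4 and 41.9 FPKM in *Ins2*-AKITA. The mutant mice were the lowest and the highest of the 5. Its log2 fold change was 0.05 (SE 0.23, interval -0.51 to 0.60, limma adjusted p = 0.980). Without WT replicate 1 it was -0.04, without *Ins2*-AKITA replicate 2 it was -0.20, without WT replicate 3 it was 0.13 and without *Ins2*-AKITA replicate 1 it was 0.29.

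*Itgb8* (ENSMUSG00000025321; chromosome 12, 120396495 to 120477275, minus strand), the TGF-beta activating partner of *Itgav*, had the largest log2 difference above 0. It measured 12.7, 13.4 and 18.4 FPKM in WT and 17.3 and 19.9 FPKM in *Ins2*-AKITA. WT replicate 3 lay between the mutant mice, and the other WT mice lay below both. The log2 fold change was 0.32 (SE 0.25, interval -0.28 to 0.92, limma adjusted p = 0.90), was between 0.22 and 0.48 without any 1 mouse, and missed the threshold in each. Without WT replicate 3, the value of 0.48 was the highest of these. *Itgb8* made up 7.19, 6.31 and 9.17% of the summed integrin FPKM in WT, against 10.1 and 10.9% in *Ins2*-AKITA. The mutant shares thus lay above all WT shares, although the FPKM of *Itgb8* itself overlapped. Among single genes, 9.24% of all tested lay above all WT mice. The share also depends on the other integrins in the sum, and its difference was not tested.

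The 10 integrins differed in how far the WT mice lay apart. The files hold FPKM rather than counts, but low values came in whole steps that gave about 1130087 to 2832881 fragments per mouse, with WT replicate 3 the deepest. From this depth and the longest transcript a counting error was estimated for each gene, and these intervals cover counting error only. The estimate is approximate for genes with more than 1 transcript, which are all integrins here but *Itga5*. *Itga3* varied by 50.7% between WT mice (coefficient of variation), against 10.5% from counting alone. *Itga4* varied by 49.8% against 12.8%, and *Itgav* by 16.9% against 5.02%. *Itga5* was the only integrin with a spread below its counting error, 8.75% against 18.1%, and it also had the fewest fragments in any mouse. *Itga6*, with 10.8% against 7.26%, and *Itgb5*, with 11.9% against 8.34%, were the steadiest of the well-covered integrins.

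**Figure D3:**
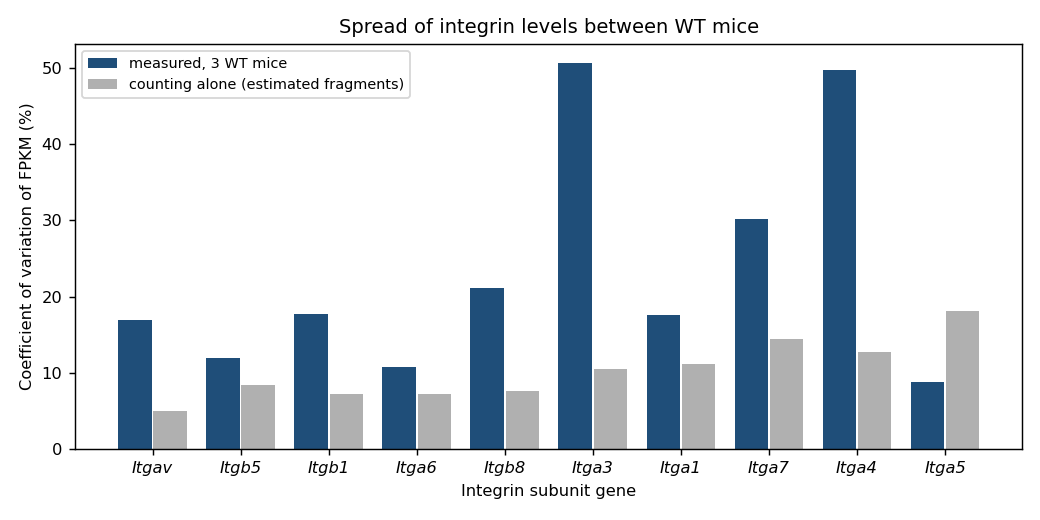
Coefficient of variation of FPKM between the 3 WT mice (blue bars, in percent) for each integrin beside the variation that counting alone would give at the estimated depth (grey bars). *Itga3* (50.7%) and *Itga4* (49.8%) stand far above counting error, and *Itga5* (8.75%) is below it.

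The WT mice also differed in library make-up. Small and ribosomal RNA genes took 96.7, 96.6 and 58.0% of the FPKM sum in WT, against 89.6 and 40.6% in *Ins2*-AKITA, lowest in WT replicate 3 and *Ins2*-AKITA replicate 2. Those libraries were also the lowest for *Itga3*, *Itga5* and *Itga7* and the highest for *Itgb5* and *Itgb8*. The other integrins did not follow this split. For *Itgb1* the same libraries were at opposite ends, 44.3 FPKM in WT replicate 3 and 27.1 FPKM in *Ins2*-AKITA replicate 2. The share of all genes that follow the split was not computed. The part of library make-up in these integrin values was not tested.

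Because a heterodimer needs both subunits, the ratio of alpha to beta FPKM was taken within each mouse, where scaling between mice cancels. In the 9 pairs examined, 4 differences of the mean log2 ratio were above 0 and 5 below. All 9 had an adjusted p of 0.8 over the pairs (exact two-sided permutation test, Benjamini-Hochberg). In 2 of the 9 pairs, both with *Itgav*, the *Ins2*-AKITA mice lay below all WT mice, and in 0 pairs did they lie above. Among single genes, 10.3% of all tested lay below and 9.24% above. The 2 pairs share the *Itgav* values, so they are not independent cases.

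The ratio of *Itgav* to *Itgb8* was 2.56, 3.43 and 2.15 in WT, against 1.67 and 2.11 in *Ins2*-AKITA. The gap between WT replicate 3 and *Ins2*-AKITA replicate 2 was small beside the range within each genotype. On the log2 scale the mean was 1.41 ± 0.34 in WT and 0.91 ± 0.24 in *Ins2*-AKITA (SD, n = 3 and 2), a difference of -0.51 or 1.42-fold (exact permutation p = 0.2). Leaving out 1 mouse at a time gave -0.67 to -0.32, with the value nearest 0 in the absence of WT replicate 2 (-0.32) and *Ins2*-AKITA replicate 1 (-0.34).

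The ratio of *Itgav* to *Itgb5* was 1.09, 1.33 and 1.04 in WT, against 0.981 and 0.997 in *Ins2*-AKITA. *Itgav* thus exceeded *Itgb5* in the 3 WT mice, most in WT replicate 2, and lay just below it in both mutant mice. In the mutant mice the estimated counting error was 5.23 to 6.70% for *Itgav* and 8.06 to 10.2% for *Itgb5*. The mutant ratios were therefore not resolved from equal levels. Their mean log2 ratio differed by -0.21 between the genotypes (exact permutation p = 0.2), or -0.10 without WT replicate 2. The ratio of *Itgav* to *Itgb1* ranged over 0.997, 1.37 and 0.896 in WT, against 0.852 and 1.54 in *Ins2*-AKITA, so the mutant mice spanned the WT mice.

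Among the partners of *Itgb1* other than *Itgav*, *Itga6* came closest to the level of the beta subunit. Its ratio to *Itgb1* was 0.839, 1.02 and 0.704 in WT, against 0.698 and 1.06 in *Ins2*-AKITA. *Itga3* stood at 0.542, 0.527 and 0.128 in WT, against 0.298 and 0.168 in *Ins2*-AKITA, the widest range of any pair on the log2 scale. The summed alpha subunits other than *Itgav* came to 2.10, 2.54 and 1.37 times the level of *Itgb1* in WT, against 1.82 and 1.924 times in *Ins2*-AKITA (exact permutation p = 0.7). This sum of alpha transcripts exceeded *Itgb1* in every mouse, while the genotypes overlapped. It counts all *Itga6* toward *Itgb1*, although *Itgb4* also pairs with *Itga6*. An excess of alpha subunits over their beta partners was therefore not shown.

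**Figure D4:**
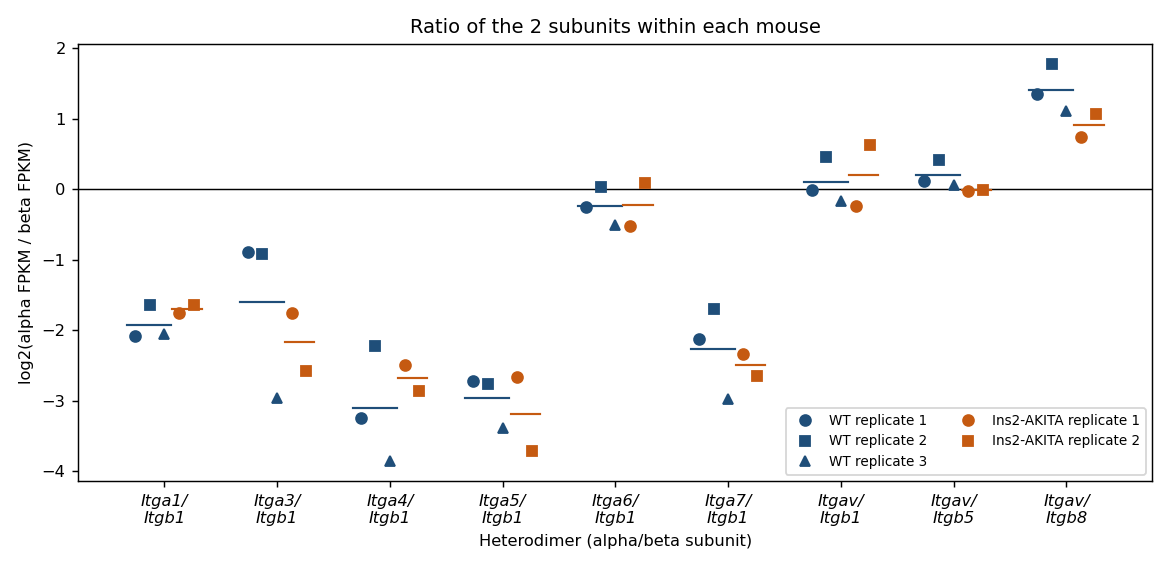
Log2 ratio of alpha to beta subunit FPKM within each mouse for 9 heterodimers, with a line at the mean of each genotype (WT, n = 3, and *Ins2*-AKITA, n = 2). *Itgav*/*Itgb8* and *Itgav*/*Itgb5* are the 2 pairs with both *Ins2*-AKITA mice below all WT mice, by mean differences of -0.51 and -0.21, and the other 7 pairs overlap.

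Of the 17 other integrins, 8 reached a mean FPKM of 1, and 0 of them passed limma at an adjusted p of 0.05. Their means were lower in 5 and higher in 3 on the deposited scale (TPM: lower in 2 and higher in 6), with a median log2 fold change of -0.54. On the deposited scale, 8718 of all 16286 genes tested were lower. *Itga2b*, the platelet alpha subunit, measured 10.3, 8.47 and 3.27 FPKM in WT and 1.14 and 2.26 FPKM in *Ins2*-AKITA, a log2 fold change of -1.55 (SE 0.51, limma adjusted p = 0.896 and exact permutation p = 0.2). Among all integrins tested it was the only one with both mutant mice below all WT mice, and in none did both lie above. *Itgb4*, the beta subunit that pairs with *Itga6* in epithelia, measured 40.6 FPKM in WT replicate 1 and between 4.72 and 7.88 FPKM in the other 4 mice. *Itga9* measured 12.4, 13.1 and 8.45 FPKM in WT and 9.49 and 3.87 FPKM in *Ins2*-AKITA, and *Itgam*, a subunit of microglia and other myeloid cells, measured 4.75, 14.5 and 14.2 FPKM in WT and 12.7 and 11.1 FPKM in *Ins2*-AKITA. *Itga10*, a collagen receptor, did not exceed 3.70 FPKM in any mouse.

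Matrix ligands of the integrins had a lower mean in 22 of 30 genes tested and a higher one in 8 (TPM: higher in 30 of 30). Of all 16286 genes tested, 8718 were lower and 7568 higher. The median of the ligands was -0.27, with 0 genes past an adjusted p of 0.05 in limma. At an unadjusted p of 0.05, 1 was lower (2.93% of all genes) and 0 were higher (1.53%). Both mutant mice lay below all WT mice in 7 of the 30, against 10.3% of all genes, and above in 1, *Npnt*, a ligand of the *Itga8* heterodimer, against 9.24%. Among the laminin chains, 8 of 10 had a lower mean. *Lamc1*, the gamma chain common to most vascular laminins, measured 19.0, 16.4 and 15.4 FPKM in WT and 11.3 and 11.03 FPKM in *Ins2*-AKITA. Its groups did not overlap, with a log2 fold change of -0.56 (SE 0.22, limma adjusted p = 0.896 and exact permutation p = 0.1).

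Fibronectin (*Fn1*), the ligand of the *Itga5* heterodimer, measured 59.2, 82.2 and 60.8 FPKM in WT and 53.2 and 40.3 FPKM in *Ins2*-AKITA, also without overlap (log2 fold change -0.52, limma adjusted p = 0.896). Vitronectin (*Vtn*), a ligand of *Itgav* heterodimers that pericytes make, measured 82.4, 75.8 and 59.97 FPKM against 57.7 and 46.2 FPKM. *Mfge8*, an RGD protein, measured 59.2, 100 and 113 FPKM in WT and 113 and 120 FPKM in *Ins2*-AKITA. The type IV collagen chain *Col4a2* ranged from 59.4 to 113 FPKM in WT and measured 74.3 and 56.4 FPKM in *Ins2*-AKITA. The 5 genes of latent TGF-beta, on which *Itgav* and *Itgb8* act, all had a lower mean on the deposited scale (TPM: higher), and *Lrrc32*, a membrane anchor of latent TGF-beta, measured 8.34, 5.27 and 8.40 FPKM in WT and 3.21 and 4.76 FPKM in *Ins2*-AKITA. None of these ligands passed the test.

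Inside the cell, 31 genes of the integrin adhesion complex were tested, and 0 passed an adjusted p of 0.05 in limma. Their means were lower in 21 and higher in 10 (TPM: higher in 31 of 31), where 8718 of all 16286 genes tested were lower. The median log2 fold change of -0.10 was close to that of all genes. Both mutant mice lay below all WT mice in 3 (*Zyx*, *Lims2* and the scaffold *Bcar1*) and above in 4 (the activator *Tln2*, the linker *Ilk*, the kinase *Src* and the tetraspanin *Cd9*), shares near the 10.3% and 9.24% of all genes. The largest difference was in *Zyx* (zyxin, an actin regulator of focal adhesions), with 20.1, 17.1 and 14.3 FPKM in WT and 6.16 and 5.72 FPKM in *Ins2*-AKITA. The groups were well apart, yet the log2 fold change of -1.38 (SE 0.25) had a limma adjusted p of 0.603 and an exact permutation p of 0.1, the smallest possible. *Actn1*, which crosslinks actin, was at -0.55 and *Lims2*, which binds the integrin-linked kinase complex, at -0.59, each with a limma adjusted p of 0.896.

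The integrin activator *Fermt2* (kindlin-2), by contrast, measured 86.3, 122 and 146 FPKM in WT and 115 and 141 FPKM in *Ins2*-AKITA. *Shank3*, an inhibitor of integrin activation, measured 126, 112 and 121 FPKM against 109 and 129 FPKM, and the tetraspanin *Cd81* ranged from 205 to 240 FPKM over all 5 mice. Both *Ins2*-AKITA values lay inside the WT range for *Fermt2* and *Cd81*.

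Marker genes of the cells in the fragments also differed in mean, on the deposited scale, where 8718 of all 16286 genes tested had a lower mean. Of 8 endothelial markers, 8 had a lower mean in *Ins2*-AKITA, 2 of them without overlap (median -0.44), and their summed FPKM was 343 to 614 in WT and 295 to 377 in *Ins2*-AKITA. Of 8 pericyte markers, 6 had a lower mean, with sums of 211 to 264 and 183 to 237 FPKM. *Pdgfrb*, counted as lower, was at -0.02, and the 2 higher markers were *Rgs5* (0.01) and *Anpep* (0.18). In the paper, qPCR of isolated fragments showed no difference in *Pdgfrb* or *Rgs5*. Its staining gave a higher coverage of vessels by ANPEP-positive pericytes in mutants. Of 6 smooth muscle markers, 5 had a lower mean and 4 did not overlap (median -0.60), with sums of 222 to 272 and 145 to 183 FPKM. Over all genes, 10.3% lay below all WT mice. Under TPM the endothelial and pericyte markers were all higher and 5 of 6 smooth muscle markers were higher.

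All 8 astrocyte markers had a higher mean in *Ins2*-AKITA, 4 of them without overlap against 9.24% of all genes (median 0.49). This direction held for 8 of 8 under each scaling run, although under TPM the median of all genes was itself 1.07. Relative to the median of all genes, the astrocyte median lay between 0.47 (quantile normalization) and 1.05 (TPM). *Gfap* was at 0.40, with the genotypes overlapping. In the paper, qPCR found *Gfap* unchanged in isolated fragments and in cortex, and GFAP staining did not differ. The summed FPKM of the 8 markers, of which *Slc1a2* and *Aldoc* were the largest parts, was 2198, 2596 and 3056 in WT. In *Ins2*-AKITA it was 3439 and 4036. *Itgb8*, known from astrocytes, was also lowest in WT replicates 1 and 2. At 18.4 FPKM in WT replicate 3 it lay above *Ins2*-AKITA replicate 1 (17.3 FPKM), whereas the marker sum lay below it there. No defining marker of these 4 cell types was at 0 in any mouse. Microglia and macrophage markers had a median of 0.12, oligodendrocyte markers of -0.03, neuron markers of 0.21, fibroblast markers of -0.18 and blood cell markers of -0.79. Of all these markers, limma called 0 at an adjusted p of 0.05, and their part in the integrin values was not tested.

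**Figure D5:**
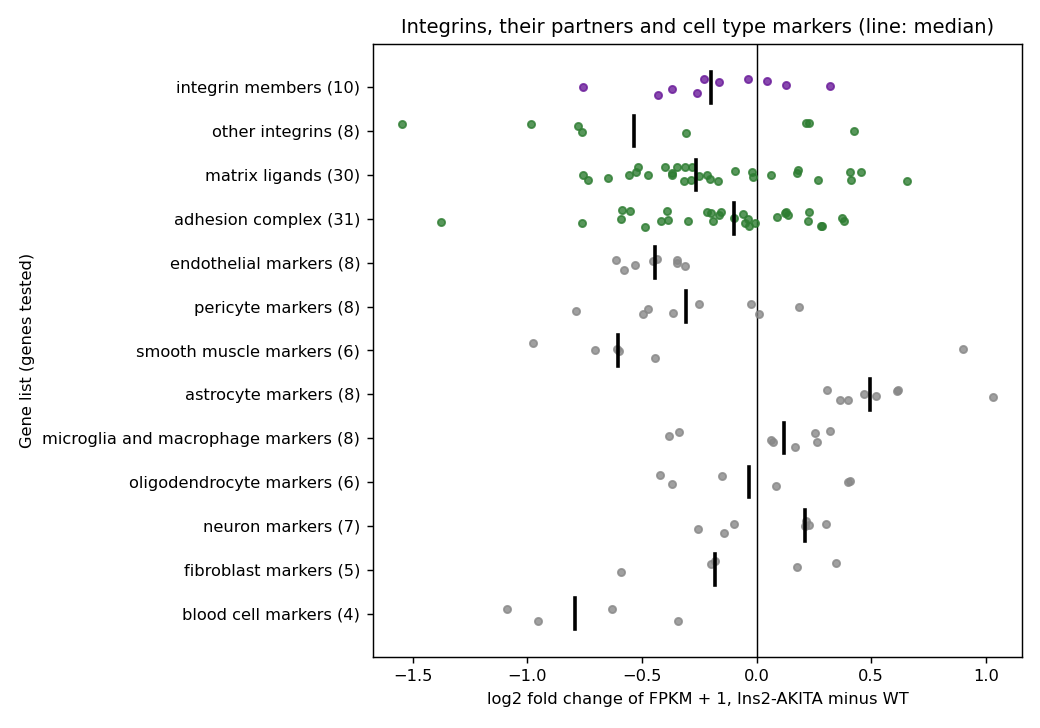
Log2 fold change of FPKM + 1 (*Ins2*-AKITA minus WT, limma) of each gene tested, by list, with the number of genes in parentheses and a line at the median of the list. The 10 integrins have a median of -0.20, near the -0.03 of all genes, while smooth muscle markers (-0.60) and astrocyte markers (0.49) are shifted to either side; under TPM scaling the medians of all these lists lie above 0.

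The profile of *Itgb1* over the 5 mice, centred on its mean, was compared with those of 8181 genes with a mean FPKM of at least 10. By root mean square distance on the log2 scale, the nearest were *Hmgn5* (0.044), *Mtmr4* (0.052), *Zfhx3* (0.072), *Trf* (0.073) and *Bahcc1* (0.074). *Mtmr4* measured 19.9, 18.8 and 24.96 FPKM in WT and 19.4 and 16.5 FPKM in *Ins2*-AKITA, with the same highest and lowest mouse as *Itgb1*. These distances over 5 mice are a description and share the depth and scaling of the same libraries.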

How the data were processed

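For 3 WT and 2 *Ins2*-AKITA mice, the authors depleted ribosomal RNA, made stranded total RNA libraries, mapped reads to NCBIM37 with TopHat2 2.0.4, filtered duplicates with Picard 1.92 and tested with Cufflinks 2.2.1. They deposited FPKM per gene and mouse. The program behind these values and the Ensembl release are not given in the sources used here. Removal of duplicates can lower values of abundant transcripts, and very short genes inflate the FPKM sum.

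Of the identifiers, 37197 matched the GENCODE vM1 annotation of NCBIM37 and 785 kept their identifier. Rows sharing a symbol were summed to 34615 symbols, and 16286 passed a filter on low values (mean FPKM at or above 1). On log2(FPKM + 1) of these, limma 3.58.1 (R 4.3.3) was run two-sided with a trended eBayes step and with Benjamini-Hochberg adjustment at 0.05. Fold changes on this scale understate changes of low genes. Single values were compared by exact two-sided permutation of mice in Python 3.11.15. These p-values measure the spread between mice, each 1 library.

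Fragments per mouse were estimated from steps of low FPKM values and exon lengths of genes with 1 transcript. Between 97.3 and 97.7% of the values checked were whole within 0.03 of a fragment. Fragments of each integrin were then computed from its longest transcript, and intervals are Poisson 95% intervals. All integrins but *Itga5* have more than 1 transcript, so their fragment numbers and intervals are approximate. Genes named besides the integrins were, in each pathway list, the 3 with the smallest limma p and the 3 with the highest mean FPKM, and the 5 genes most like *Itgb1*. *Itga10*, *Cerkl*, *Gm13684*, the 4 genes called and genes given with small counts of lists were named after their values were seen. So were the cell type markers named singly. Members and lists were chosen with earlier results of these data known. Of the listed genes, *Lamb1-1*, *Nrros* and *Map2* had no matching symbol. Alternatives covered the pseudocount, the filter, 4 scalings, the replicate block, rows sharing a symbol and leaving out each mouse. The fit was tested on simulated data.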

Additional observations from a re-analysis of the deposited data

How the results depend on the processing

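No integrin passed an adjusted p of 0.05 in limma under any alternative. *Itga3*, *Itga6*, *Itga7* and *Itgb1* stayed below 0 in all alternatives but TPM. *Itgb8* stayed above 0 in all alternatives, at 1.54 under TPM. With TPM left out, the smallest limma adjusted p of an integrin was 0.561 (*Itga3*). TPM divides each mouse by its FPKM sum, of which small and ribosomal RNA took 40.6 to 96.7%, and moved the median of all genes to 1.07. Under TPM the integrin median was 1.16, *Itga1* 1.07, *Itga3* 0.60, *Itga5* 0.53, *Itga6* 1.26, *Itga7* 0.70, *Itgav* 1.37 and *Itgb1* 1.24, and 4 integrins lay above all WT mice. Relative to the median of all genes under TPM, *Itga3* was at -0.47, *Itga5* at -0.54, *Itga7* at -0.37 and *Itgb8* at 0.47. The list medians under TPM were 0.53 for other integrins, 0.85 for matrix ligands and 1.32 for the adhesion complex. TPM called 30 genes lower and 58 higher, against 4 and 0 as reported, and the calls lower were 2 with no filter and 2 with a mean FPKM of at least 5. With no filter, which tests more genes, the median of other integrins was -0.15. *Itga1* was 0.040 after quantile normalization, and the adhesion complex median was -0.14 after scaling to the nuclear protein-coding sum. The cause of these shifts was not tested.

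Replicate numbers were shared by both genotypes, and deviations of same-numbered mice correlated at 0.051 and -0.034, a check that cannot show pairing with 2 mutant mice. With the replicate block, which leaves WT replicate 3 without a partner, *Itga1* was 0.033, *Itga4* -0.063, the adhesion complex median -0.16, and the ratio differences of *Itga6*/*Itgb1* and *Itgav*/*Itgb1* were -0.10 and -0.029. The block changed no call of an integrin.

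Without 1 mouse at a time, log2 fold changes ran from -0.18 to 0.055 for *Itga1*, -0.15 to 0.44 for *Itga4*, -0.89 to 0.16 for *Itga5*, -0.37 to -0.095 for *Itga6*, -0.42 to 0.098 for *Itgav* and -0.20 to 0.29 for *Itgb5*. Ratio differences to *Itgb1* ran from -0.76 to 0.29 for *Itga5*, -0.28 to 0.33 for *Itga6*, -0.58 to 0.057 for *Itga7* and -0.33 to 0.53 for *Itgav*. Between 0 and 4 integrins lay below all WT mice, 0 to 2 above, and 2 to 6 pairs lay outside the WT range, each with fewer mice to overlap. List medians ran from -0.30 to -0.10 (the 10 integrins), -0.71 to -0.13 (other integrins), -0.32 to -0.045 (matrix ligands) and -0.16 to 0.040 (adhesion complex). Calls over all genes ran from 2 to 10 lower and 0 to 10 higher. A genotype left with 1 mouse was assumed to vary like the other. Depth limits *Itga5* most, with 10.96 fragments in 1 mouse.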
